A study of Danio rerio with 12 samples.

Results

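The 82 cytosolic ribosomal protein genes were examined in poly(A) RNA of zebrafish whole kidney marrow. They were the genes of the deposited table whose symbol starts with rpl or rps followed by a digit, a or p. The stem took in 96 identifiers. Of these, 14 were set aside by name: the rps6k kinases, rpl7l1, rps19bp1 and rps27l. All of the remaining 82, of 32105 genes in the table, had a mean of at least 1 CPM, the count of a gene scaled to the size of its library, and all 82 had enough counts to be tested. The member nearest the limit was rps11l, with a mean of 1.797 CPM, and none fell below it. The set holds 42 genes of the large subunit, 36 of the small subunit and 4 of the stalk. The choice used no difference between genotypes.

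Each of the 12 libraries came from the dissected kidney of 1 adult fish, and the libraries fell into 4 groups of 3 fish: wild type, mutants of prkdc, mutants of il2rga, and mutants of both genes, called double mutants here. The product of prkdc is the kinase subunit of DNA-PK, an enzyme needed to rejoin broken DNA, also when antigen receptor genes are put together, and il2rga codes for the receptor chain that several interleukins share. The series text names the alleles prkdc D3612fs and il2rga Y91fs, both frameshift mutations, for its mutant lines, whereas the labels of these libraries give the mutated genes without an allele, an age or a sex. No group carried a transgene or a treatment in its labels. The mutations are present in the whole animal, and the dissected kidney holds tubules beside blood-forming cells.

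A ribosome is built from ribosomal RNA and about one copy of each ribosomal protein per particle. The large subunit forms peptide bonds, the small subunit reads the messenger RNA, and the acidic stalk of the large subunit recruits the elongation factors. Messenger RNAs of ribosomal proteins begin with a terminal oligopyrimidine (TOP) motif, through which the kinase complex mTORC1 controls their translation. In blood-forming tissue the family is known for Diamond-Blackfan anaemia, a failure of red cell production in people who carry a defective copy of one of these genes.

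Total counts ran from 4756244 to 10311377 per library. The gene il2rga stood at 1.71 to 6.17 CPM in the 6 libraries with the il2rga mutation and at 34.1 to 61.4 CPM in the other 6. Wild type fish had 50.1 to 62.8 CPM of prkdc, against 16.0 to 23.3 where it was mutated, 22.1 to 34.2 in il2rga mutants and 17.8 to 19.2 in double mutants. Marker genes of kidney tubule, red cells and neutrophils were present in all 12 libraries. The 14 T cell markers had a mean log2 CPM of 2.29 to 3.26 in wild type and 0.44 to 1.27 in prkdc mutants. In the 6 libraries with the il2rga mutation they stood at -1.12 to -0.12. The 11 B cell markers stood at 3.59 to 4.90 in wild type and at 3.44 to 5.05 in il2rga mutants. In prkdc and double mutants they stood at 1.52 to 2.26 and at 1.57 to 1.88. The 23 liver markers had a mean log2 CPM of 0.48 to 2.09 in wild type and prkdc mutants, of 5.90, 7.27 and 1.56 in il2rga mutants 1 to 3, and of 8.61, 6.56 and 5.14 in double mutants 1 to 3. For 18 ovary and yolk markers the values were -0.85 to 1.32, then 2.48, 1.95 and -0.61, then 7.49, 4.16 and 0.25, in the same order. For 7 testis markers they were 0.58 to 2.76, then 1.32, 4.83 and 2.04, then 2.51, 1.95 and 1.46. Genes for 50 very long transcripts stood at 6.66 to 6.67 log2 CPM in wild type and at 6.42 to 6.47 in prkdc mutants. These 2 groups did not overlap, and the 6 libraries with the il2rga mutation stood lower, at 5.53 to 5.98. In whole tissue, a change in the number of cells of a type and a change in the RNA per cell cannot be told apart.

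Ribosomal protein messages made up 5.64% to 8.84% of all counts. The share was 6.63%, 6.98% and 7.24% in wild type 1 to 3, a mean of 6.95% ± 0.306 (SD, n = 3). The prkdc mutants 1 to 3 had 6.35%, 5.64% and 6.54%, a mean of 6.17% ± 0.474. All 3 prkdc mutants therefore lay below the lowest wild type fish. The il2rga mutants had 7.24%, 7.16% and 8.78%, a mean of 7.73% ± 0.913, and the double mutants had 6.71%, 6.095% and 8.84%, a mean of 7.21% ± 1.44. Fish 3 of each of these groups stood above its group mates and above every wild type fish, and double mutant 2 lay below every wild type fish. The 95% Wilson interval of any single share reached at most 0.0245 percentage points to either side and covers counting error only, so the spread between fish was far wider than the counting error.

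**Figure D1:**
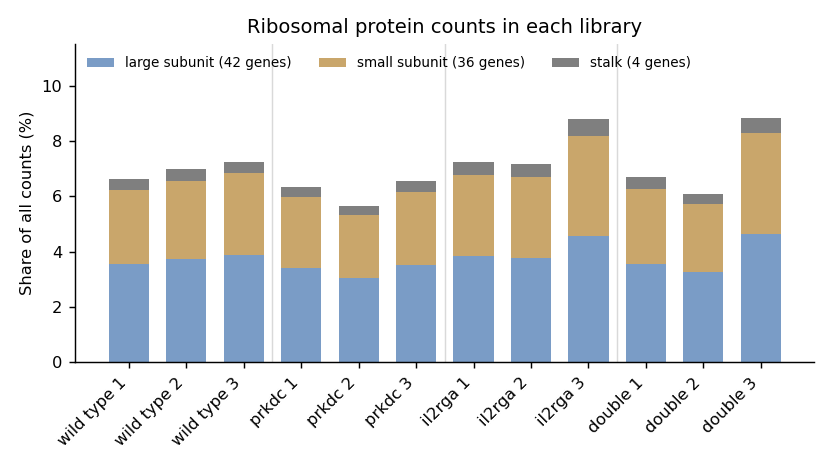
Share of all counts (%, vertical axis) that fell on ribosomal protein genes in each of the 12 libraries, stacked by large subunit (42 genes), small subunit (36) and stalk (4). The 3 prkdc mutants (5.64% to 6.54%) lie below the 3 wild type fish (6.63% to 7.24%), and il2rga mutant 3 and double mutant 3 are the tallest bars (8.78% and 8.84%).

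The members moved together from fish to fish. On the scale of log2 CPM after scaling by the trimmed mean of M values (TMM), the mean over the 82 genes was 9.32, 9.39 and 9.38 in wild type, and 9.18, 9.13 and 9.20 in prkdc mutants. In il2rga mutants the values were 9.42, 9.34 and 9.81, while double mutants had 9.40, 9.197 and 9.75. The highest of the 12 libraries was il2rga mutant 3 for 53 members and double mutant 3 for 25 members. The lowest was prkdc mutant 2 for 57 members. Between its highest and lowest library a member differed by a median of 1.70-fold, with a range of 1.49 to 3.23, and 75 of 82 differed by less than 2-fold.

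Once the mean of all members was taken away in each library, the SD of a member over the 12 libraries had a median of 0.089 on the log2 scale. The tightest members were rpl32, at 0.034, and rpl27 and rps25, at 0.041 each. Among those that departed most were the scarce rps11l, at 0.55, and 1 of the 2 rpl5 genes (ENSDARG00000020197), at 0.44. The value of rps11l rests on 6 to 26 counts per library. The rpl5 gene is abundant.

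**Figure D2:**
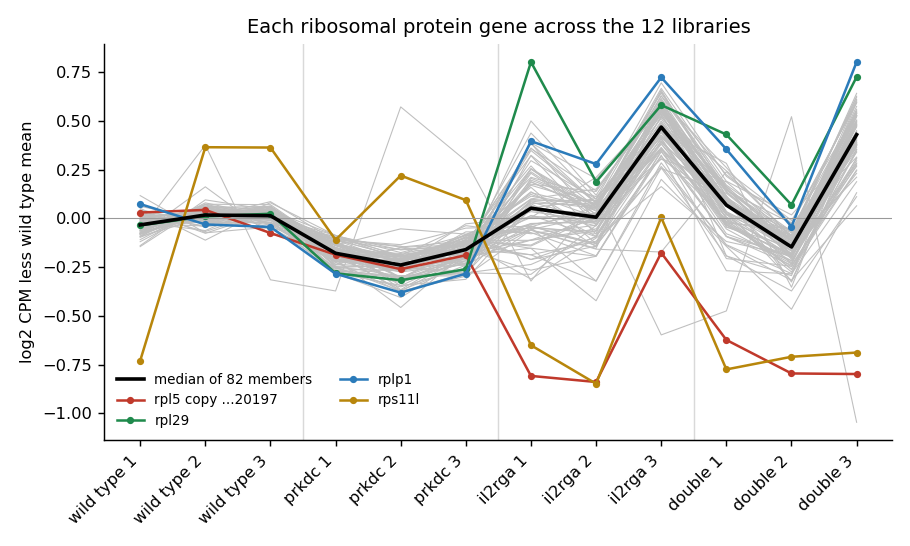
Log2 CPM of each of the 82 genes less its own wild type mean (vertical axis) in the 12 libraries (horizontal axis), with the median in black and 4 genes in colour. Most genes run as 1 bundle that is low in prkdc mutants and high in il2rga mutant 3 and double mutant 3, while rpl5 ENSDARG00000020197 runs below the bundle in all 6 libraries with the il2rga mutation.

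In prkdc mutants, 81 of 82 members lay below wild type, by a small amount that the test of single genes did not call. The median log2 fold change was -0.19, against 0.00 over all 18370 genes tested, of which 50.1% lay above 0. In 77 members all 3 prkdc mutants were lower than all 3 wild type fish. Over all genes, 7.61% had such a gap in that direction. Because the members rise and fall together, these 77 are close to a single observation on 6 fish. edgeR's quasi-likelihood test called 0 members at a Benjamini-Hochberg adjusted p under 0.05, where 0% of all genes were called. No member reached an unadjusted p under 0.05, where 2.83% of all genes did so above wild type and 2.90% below. DESeq2 and limma voom also called 0 members, against 0.757% and 0.142% of all genes. The standard error of a member's log2 fold change had a median of 0.19, as large as the shift itself. That error rests on 1 estimate of the spread shared by all 12 libraries, so it is not the scatter of the fish compared here alone. The mean over the 82 genes had an SD of 0.035 log2 units among wild type fish and 0.039 among prkdc fish. The SD was larger in the il2rga group, at 0.25, and in the double mutant group, at 0.28.

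The lower level in prkdc mutants ran through every structural class. The range was -0.29 to -0.090 in the large subunit and -0.32 to -0.22 in the stalk. In the small subunit it ran from -0.31 to 0.196. The lowest values belonged to rplp1 (-0.32 ± 0.21, SE), a stalk protein, and to rps29 (-0.31) and rps20 (-0.31), both of the small subunit. The values nearest 0 among abundant members were those of rpl7 (-0.097) and rpl13a (-0.090), both of the large subunit. In rps29, whose loss impairs blood formation in zebrafish, levels were 303.8, 290.8 and 297.2 CPM in prkdc mutants and 367.9, 367.1 and 372.2 CPM in wild type, so the groups did not overlap.

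The number of genes without overlap depended on scaling, and the median depended on whether a red cell covariate was fitted. With total counts in place of TMM, 40 of the 82 members showed no overlap, and the median was -0.17. With size factors from median ratios, 78 members showed no overlap. The share of all genes without overlap was worked out for TMM only. The 13 red cell markers stood at 8.001, 8.76 and 7.69 log2 CPM in wild type and at 7.83, 6.34 and 7.25 in prkdc mutants. Of these 6 fish prkdc mutant 2 was lowest in the markers and in the mean over the ribosomal protein genes. The other fish did not keep 1 order: prkdc mutant 1 exceeded wild type 3 in the markers, but its mean over the members was lower (9.18 against 9.38). With the red cell marker level as a covariate the median of the members became 0.00096, and 42 of 82 lay above 0. The 25 genes of cycling cells stood at 5.80, 4.35 and 5.41 log2 CPM in prkdc mutants, against 5.48 to 6.06 in wild type. Their lowest fish was again prkdc mutant 2, while prkdc mutant 1 lay within the wild type range. Markers of T cells and of B cells were lower in all 3 prkdc mutants than in every wild type fish. The part of any of these markers in the ribosomal protein values was not tested further.

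In il2rga mutants, 72 of 82 members lay above wild type, with a median log2 fold change of 0.197 against 0.057 over all genes, of which 53.5% lay above 0. edgeR called 0 members, against 5.80% of all genes. At an unadjusted p under 0.05 there were 6 members, 5 of them higher, where 11.7% of all genes were higher and 12.1% lower. DESeq2 and limma voom each called 1 member, the rpl5 gene ENSDARG00000020197, against 13.1% and 14.4% of all genes. In 24 members (29.3%) all 3 il2rga mutants exceeded all wild type fish, where 14.6% of all genes did. The difference in the mean over all members was 0.16 log2 units, and 0.013 without il2rga mutant 3. With the 4 fish richest in liver transcripts left out, which leaves only il2rga mutant 3 in the group, the median was 0.47. The highest members were rpl29 (0.55 ± 0.20, SE; adjusted p = 0.130 by edgeR), rplp1 (0.48 ± 0.21; 0.196), rps10 (0.44; 0.207) and rpl17 (0.43; 0.208). Among the lowest were rps11l (-0.62), the rpl5 gene described further on and rpl22l1 (-0.13), which in zebrafish embryos takes part in forming blood stem cells.

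In double mutants, 71 of 82 members lay above the same wild type fish, with a median of 0.14 against 0.050 over all genes, of which 52.6% lay above 0. edgeR called 1 member, which fell, the rpl5 gene ENSDARG00000020197, against 14.3% of all genes called in either direction and 7.51% called lower. All 3 double mutants exceeded wild type in rpl29 only, where 16.7% of all genes did so. Without double mutant 3 the difference in the mean over all members turned from 0.084 to -0.068. With the 4 fish richest in liver transcripts left out, which leaves only double mutant 3, the median was 0.44, and with the red cell covariate it was 0.28. Beside rpl29 (0.43 ± 0.20) and rplp1 (0.41), the highest values were those of rplp2l (0.30) and rpl34 (0.29). Among the lowest were rps11l (-0.92 ± 0.45; adjusted p = 0.185), the rpl5 gene and rpl12 (-0.14), a protein at the base of the stalk. The level of rpl12 was 1087.2, 1030.8 and 1070.5 CPM in wild type and 962.2, 769.1 and 1164.5 in double mutants, and those groups overlapped.

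Against prkdc mutants the members of both other mutant groups were higher. The median log2 fold change was 0.37 for il2rga mutants and 0.34 for double mutants, each with 79 of 82 members above 0. Over all genes the medians were 0.035 and 0.031, and 52.1% and 51.6% lay above 0. All 3 il2rga mutants exceeded all 3 prkdc mutants in 60 members (73.2%, against 15.4% of all genes), and all 3 double mutants did so in 39 members (47.6%, against 16.0%). These 2 comparisons share the prkdc libraries, which are the low group of the 4. edgeR called rpl29 and rplp1, both higher, in each comparison, against 3.10% of all genes called higher for il2rga mutants and 7.93% for double mutants. Without il2rga mutant 3 and double mutant 3, the medians were 0.19 and 0.14. With a liver covariate they were 0.71 and 0.84, but the liver level largely followed the il2rga mutation, so that fit cannot tell them apart. Without the 4 fish richest in liver transcripts, which leaves only il2rga mutant 3 and double mutant 3, the medians were 0.68 and 0.63. DESeq2 called 14 members for il2rga mutants and 7 for double mutants, against 14.5% and 22.7% of all genes.

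Between double and il2rga mutants, edgeR called 0 members, where 0% of all genes were called, and no member reached an unadjusted p under 0.05, where 5.45% of all genes did so above and 4.17% below. DESeq2 and limma voom called 0 members as well, against 0.392% and 0% of all genes. The median was -0.07, with 19 of 82 above 0 against 50.0% of all genes. It ran from -0.26 to 0.10 with each library left out in turn. No member had groups without overlap, where 5.60% of all genes had them above and 5.85% below. With the replicate number as a block, the count also was 0. The highest value was that of rpl22l1 (0.34; adjusted p = 0.544 by edgeR), and among abundant members the lowest was that of rpl26 (-0.25). The interaction, which asks whether the prkdc mutation acts differently with and without the il2rga mutation, had a median of 0.115 with 77 of 82 above 0, against a median of 0.013 and 50.9% above 0 over all genes. With each library left out in turn, the interaction median ran from -0.052 to 0.305, so its sign depended on single fish. The members rise and fall together and are not separate observations. edgeR, DESeq2 and limma voom called 0 members, against 0%, 0.267% and 0% of all genes. The only member with an unadjusted p under 0.05 there was rpl22l1 (0.61; adjusted p = 0.788 by edgeR), where 6.11% of all genes had one.

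**Figure D3:**
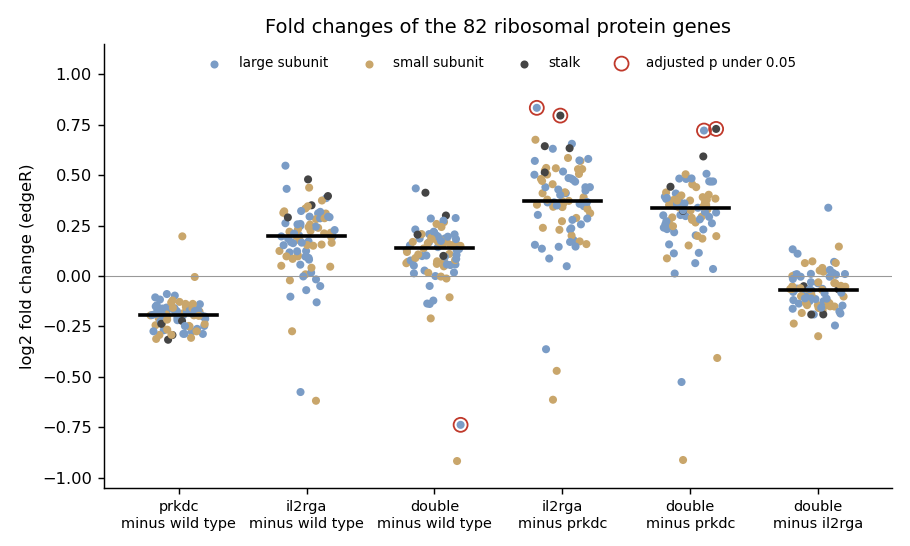
Log2 fold change from edgeR (vertical axis) of each of the 82 genes in the 6 comparisons of genotypes, coloured by subunit, with a black line at the median and red rings around genes with an adjusted p under 0.05. The medians are -0.19, 0.197, 0.14, 0.37, 0.34 and -0.07 from left to right, and rings mark 1 gene in double mutants against wild type and 2 in each comparison of il2rga or double with prkdc mutants.

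Of single members, rpl29 was the one that differed among the 4 groups in the main fit, though the member called changed with the setting. It codes for a small basic protein of the large subunit that mice can live without. Its level was 228.8, 236.3 and 238.5 CPM in wild type, against 192.9, 188.2 and 195.7 CPM in prkdc mutants. The il2rga mutants had 409.5, 267.2 and 351.2 CPM, and the double mutants had 316.3, 246.1 and 388.3 CPM. Every fish with the il2rga mutation exceeded every fish without it, and every prkdc mutant lay below every wild type fish. It rose over prkdc mutants by 0.83 ± 0.20 in il2rga mutants (adjusted p = 0.0379 by edgeR) and by 0.72 ± 0.20 in double mutants (0.0396). The joint test of any difference among the 4 groups called rpl29 alone (adjusted p = 0.0460 by edgeR), where 14.1% of all genes were called. With the replicate number as a block that test called no member. With total counts it called rpl5 ENSDARG00000020197 and not rpl29 (adjusted p = 0.0276 by edgeR). The same held with scaling to the sum of the ribosomal protein genes (0.0231) and without il2rga mutant 3 and double mutant 3 (0.0082).

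The 4 stalk genes had the largest median shift of the classes in each mutant against wild type, at -0.27, 0.37 and 0.25 in prkdc, il2rga and double mutants. The stalk consists of rplp0, its base, and pairs of the acidic proteins rplp1 and rplp2, here with a second rplp2-like gene, rplp2l. For rplp1 the level was 934.0, 868.6 and 860.8 CPM in wild type, against 728.7, 681.3 and 729.0 CPM in prkdc mutants. It was 1168.4, 1076.9 and 1466.2 CPM in il2rga mutants and 1135.2, 861.5 and 1548.7 CPM in double mutants. The il2rga mutants lay above all wild type fish, whereas double mutant 2 lay at the lower end of them. Over prkdc mutants rplp1 rose by 0.79 ± 0.21 in il2rga mutants (adjusted p = 0.0479 by edgeR) and by 0.73 ± 0.21 in double mutants (0.0429). In the il2rga comparison rplp2 stood at 0.63 (0.0566), rplp2l at 0.64 (0.0900) and rplp0 at 0.51 (0.172), none of which passed edgeR's test. DESeq2 called rplp2 (adjusted p = 0.0087) and rplp2l (0.0389) there, where 14.5% of all genes were called. With limma voom rplp2 was called (adjusted p = 0.0285), where 19.2% of all genes were. In each of the 4 stalk genes all il2rga mutants exceeded all prkdc mutants, as they did in 60 of all 82 members and in 15.4% of all genes. That the stalk moved more than the other members was not itself tested.

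The gene listed as RPSA2 codes for the small subunit protein also known as the laminin receptor. Its level was 2048.4, 2209.1 and 2057.6 CPM in wild type, against 1822.0, 1689.6 and 1796.8 CPM in prkdc mutants. It was 2513.4, 2195.7 and 3253.6 CPM in il2rga mutants, and 2347.2, 1819.0 and 3036.4 CPM in double mutants. The prkdc mutants lay below every wild type and il2rga mutant fish, and double mutant 2 lay among them. Its difference between il2rga and prkdc mutants, 0.58, did not pass edgeR's test (adjusted p = 0.104 by edgeR). With limma voom it was 0.47 and was called (adjusted p = 0.0474), where 19.2% of all genes were.

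The calls of rpl29 and rplp1 sat near the threshold. When each library was left out in turn, rpl29 kept its call over prkdc mutants in 4 of 12 fits for both il2rga and double mutants. For rplp1 this was so in 2 of 12 fits for il2rga mutants and in 2 of 12 for double mutants. The highest adjusted p over these fits was 0.158.

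The rpl5 gene ENSDARG00000020197 ran against the rest of the family. Rpl5 protein binds Rpl11 and the 5S ribosomal RNA in a particle that joins the large subunit and that also restrains Mdm2, the inhibitor of p53, and human RPL5 is a Diamond-Blackfan anaemia gene. The level was 923.2, 931.9 and 858.2 CPM in wild type, against 794.4, 754.6 and 793.0 CPM in prkdc mutants. It was 516.0, 505.0 and 799.9 CPM in il2rga mutants and 586.6, 520.6 and 519.5 CPM in double mutants. The double mutants lay below all fish without the il2rga mutation, and il2rga mutant 3 lay at the level of the prkdc mutants. The gene fell by 0.74 ± 0.19 on the log2 scale in double mutants (adjusted p = 0.0295 by edgeR), and its value in il2rga mutants was -0.58 ± 0.19 (0.0929). Scaled to the sum of the ribosomal protein genes, the values were -0.81 in double mutants (adjusted p = 0.0356) and -0.78 in il2rga mutants (0.0498), and it was the only member called in either comparison under that scaling, where 6.81% and 3.39% of all genes were called. Over the alternatives fitted, including each library left out, the value in double mutants ran from -0.33 with a liver covariate (adjusted p = 0.536) to -0.81, and 7 of 12 fits with a library left out kept the call. With a red cell covariate the value was -0.65 and the call was lost (adjusted p = 0.0540). Without the 4 fish richest in liver transcripts the value was -0.18 in il2rga mutants, where only fish 3 then remained. The same omission left only double mutant 3 in its group, and there the log2 fold change against wild type was -0.79.

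The second rpl5 gene, ENSDARG00000015862, did not share that fall. Its level was 1062.9, 978.7 and 1055.1 CPM in wild type, against 921.5, 910.7 and 945.3 CPM in prkdc mutants, 831.4, 962.2 and 1155.6 CPM in il2rga mutants, and 950.5, 903.4 and 1241.7 CPM in double mutants, so the il2rga and double mutants overlapped with wild type. The sum of both genes was 1911 to 1986 CPM in wild type, against 1665 to 1738 CPM in prkdc mutants. It was 1347, 1467 and 1955 CPM in il2rga mutants and 1537, 1424 and 1761 CPM in double mutants. Reads of near-identical copies can be divided between them or set aside when counted, so the level of either copy is uncertain.

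Ratios between paralogues within a library need no scaling between libraries, and 8 pairs of members were compared in this way. The log2 ratio of rpl5 ENSDARG00000015862 to rpl5 ENSDARG00000020197 was 0.20, 0.071 and 0.298 in wild type, and 0.21, 0.27 and 0.25 in prkdc mutants. In il2rga mutants the ratios were 0.69, 0.93 and 0.53, while double mutants had 0.70, 0.80 and 1.26. All 6 fish with the il2rga mutation lay above all 6 without it. The lowest of the 6 with it was il2rga mutant 3, at 0.53. Whether liver transcripts had a part in the ratio was not tested. With 3 fish against 3, an exact 2-sided permutation test cannot go below 0.1, and the differences from wild type, 0.53 in il2rga mutants and 0.73 in double mutants, both gave p = 0.1 (0.4 adjusted over 48 tests). The mean over the 6 fish with the mutation was 0.82 ± 0.25 (SD, n = 6) against 0.22 ± 0.081 over the 6 others, a grouping chosen after the data were seen and given without a test.

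The pair rps27.1 and rps27.2, small subunit genes of the same name in zebrafish, had lower ratios in both groups with the il2rga mutation. The log2 ratio was 0.28, 0.397 and 0.51 in wild type, 0.39, 0.23 and 0.47 in prkdc mutants, 0.035, 0.11 and 0.28 in il2rga mutants, and 0.15, 0.16 and 0.19 in double mutants. Only il2rga mutant 3, at 0.28, reached the range of the fish without the mutation. The il2rga mutants differed from wild type by -0.25 and the double mutants by -0.23, each without overlap and at the smallest exact permutation p of 0.1 (0.4 adjusted over 48 tests). For prkdc mutants the difference was -0.033 (exact permutation p = 0.7, adjusted 0.8). The ratio of rpl22, which mouse T cells need to develop, to rpl22l1 was 1.62 in il2rga mutant 3 and at most 1.14 in the other 11 fish.

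**Figure D4:**
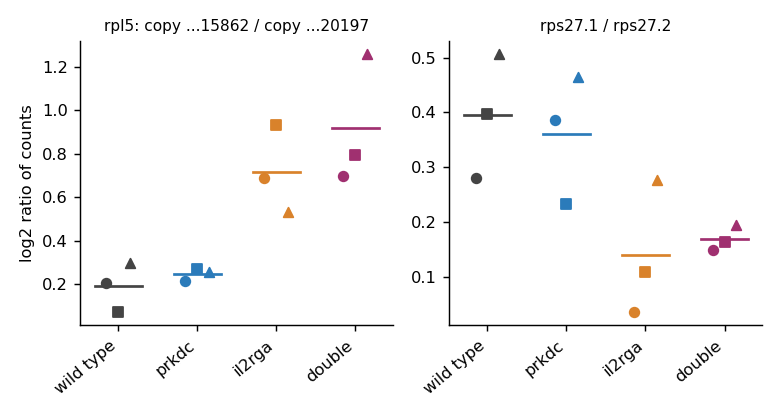
Log2 ratio of counts (vertical axes, each panel on its own scale and not starting at 0) of 2 pairs of paralogous ribosomal protein genes in the 3 fish of each genotype; marker shapes give the fish number and lines give group means. The rpl5 ratio is above 0.5 in all fish with the il2rga mutation and below 0.3 in all others, and the group means of the rps27 ratio are 0.14 and 0.17 in il2rga and double mutants against 0.39 and 0.36 in wild type and prkdc mutants, with il2rga mutant 3 inside the range of the prkdc mutants.

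The human Diamond-Blackfan anaemia genes among the members, 20 identifiers gathered after values had been seen, followed the family. All 20 lay below wild type in prkdc mutants, between -0.31 and -0.12. In both other mutant groups 17 of 20 lay above wild type, with rpl5 ENSDARG00000020197 the lowest of them and rps10 the highest.

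Mitochondrial ribosomal proteins, which build the separate ribosome inside mitochondria, showed a different pattern. Of 73 genes tested, 46 rose and 0 fell in double mutants, where 6.80% of all genes rose, with a median of 0.82. In il2rga mutants 8 rose and 0 fell, where 2.22% of all genes rose, with a median of 0.47. In prkdc mutants none was called by edgeR, the median was -0.0092 and none reached an unadjusted p under 0.05. For mrps23, of the small mitochondrial subunit, the level was 10.2, 13.03 and 9.69 CPM in wild type and 26.5, 28.5 and 30.2 CPM in double mutants, without overlap (log2 fold change 1.37 ± 0.22, adjusted p = 0.00625 by edgeR). For mrpl20, of the large mitochondrial subunit, it was 16.7, 17.9 and 21.2 CPM in wild type and 72.7, 40.8 and 49.6 CPM in il2rga mutants (1.54 ± 0.29, adjusted p = 0.0160). The mean over the list was 4.23 to 4.68 log2 CPM in wild type and 5.17 to 5.51 in double mutants, a rise in every double mutant that the cytosolic family did not share.

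Of 13 elongation factor genes, edgeR called 0 in each mutant against wild type, where it called 0%, 5.80% and 14.3% of all genes in prkdc, il2rga and double mutants. In that order 0, 3 and 1 of them had an unadjusted p under 0.05, where 5.73%, 23.8% and 32.4% of all genes had one. Over prkdc mutants eef1da, an exchange factor for elongation factor 1A, rose by 0.79 ± 0.20 in il2rga mutants (adjusted p = 0.0440 by edgeR) and by 0.69 ± 0.20 in double mutants (0.0439). Of 27 other genes with TOP messages, the ADP/ATP carrier slc25a5 rose by 0.63 ± 0.14 in il2rga mutants (adjusted p = 0.0263) and by 0.57 ± 0.14 in double mutants (0.0247), and no other was called. Of 72 ribosome assembly factors, edgeR called 0 in each mutant against wild type, and 0, 3 and 7 had an unadjusted p under 0.05 in prkdc, il2rga and double mutants, below the shares of all genes just given. Their medians were 0.083, -0.20 and 0.24 in prkdc, il2rga and double mutants. Between double and il2rga mutants the median was 0.47, with 67 of 72 above 0 against 50.0% of all genes. At an unadjusted p under 0.05 there were 16, where 5.45% of all genes were higher and 4.17% lower. In that comparison edgeR called 0 of the 72, and 0% of all genes. The mean over the assembly factors was 5.44, 5.75 and 6.10 log2 CPM in il2rga mutants 1 to 3. Double mutants had 6.09, 5.92 and 6.61, so these groups overlapped, and wild type had 5.74, 6.11 and 6.09.

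**Figure D5:**
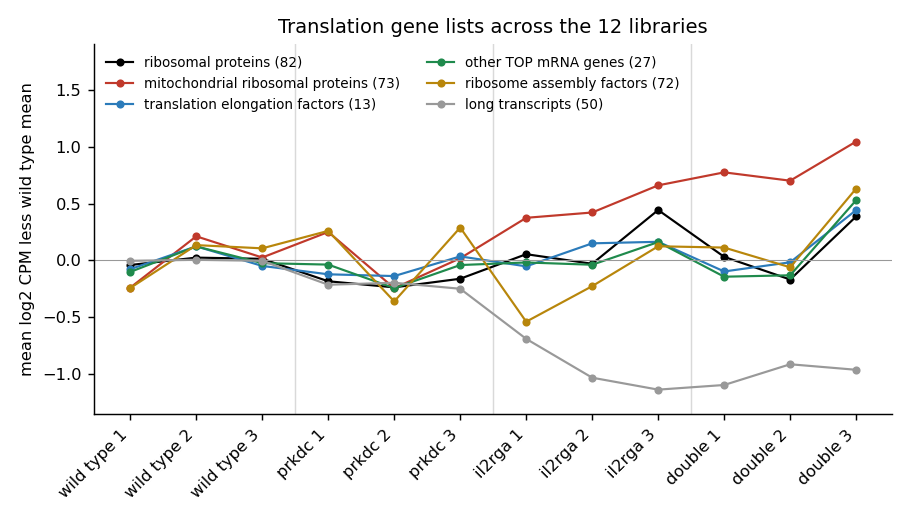
Mean log2 CPM of 6 gene lists less the wild type mean (vertical axis) in each library (horizontal axis), with the number of genes tested in brackets. Mitochondrial ribosomal proteins stand above wild type in all fish with the il2rga mutation and long transcripts stand below, while the cytosolic ribosomal proteins and the other TOP messages are raised mainly in the last fish of those groups.

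Genes that control ribosome production gave single calls. Of 19 genes of RNA polymerase I and its factors, 3 rose and 2 fell in double mutants, against 6.80% and 7.51% of all genes. Among them taf1a, a subunit of the promoter selectivity factor, rose by 1.08 ± 0.24 (adjusted p = 0.0196 by edgeR), while ubtfl and ubtf, which bind ribosomal DNA, fell by 0.83 (0.0249) and by 0.68 (0.0403). Of 11 genes of the myc family, which drives transcription of ribosomal genes, mycla rose by 1.32 ± 0.33 (0.0280) and mych by 1.04 ± 0.30 (0.0412) in double mutants, and a gene of the repressor mnt fell by 0.95 (0.0247). Of 26 genes of mTORC1 and TOP control, larp4b, which binds messenger RNA near its poly(A) tail, fell by 0.90 ± 0.20 in il2rga mutants (0.0284) and by 1.00 ± 0.20 in double mutants (0.0138), and larp4ab fell by 1.37 ± 0.30 in il2rga mutants (0.0254). These were the only calls in the list against wild type, 2 lower in il2rga mutants, where 3.59% of all genes fell, and 1 lower in double mutants. Of 12 ribosome quality control genes none was called by edgeR in a mutant against wild type, and 0, 1 and 3 reached an unadjusted p under 0.05 in prkdc, il2rga and double mutants, where 5.73%, 23.8% and 32.4% of all genes did.

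The gene rps27l, set aside by the rule and known in mammals as a p53 target, rose in both groups with the il2rga mutation. Its level was 25.8, 19.6 and 15.8 CPM in wild type, against 20.8, 23.1 and 18.0 CPM in prkdc mutants. It was 48.9, 39.8 and 51.1 CPM in il2rga mutants and 50.7, 50.5 and 42.6 CPM in double mutants, with no overlap. The log2 fold change over wild type was 1.19 ± 0.21 in il2rga mutants (adjusted p = 0.0133 by edgeR) and 1.23 ± 0.21 in double mutants (0.00749). It was the one called gene among 9 of ribosomal stress and p53 control in either comparison. Of all genes, 5.80% were called in il2rga mutants and 14.3% in double mutants.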

How the data were processed

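The deposited table holds raw read counts per Ensembl gene. Per the labels' protocols, the authors made poly(A) libraries with a directional kit from each fish's kidney. Per the submitters' processing notes, STAR, Picard and featureCounts were used on GRCz10; versions, annotation, strand setting and the handling of reads that fit several genes are not stated in the sources used here. Symbols, for 26269 of 32105 identifiers, come from a reference table. Gene lengths, promoters and sequences were not used here, so levels are not compared between genes, and the planned naming by CPM per coding length and the planned promoter motifs were not carried out.

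After filterByExpr (18370 genes) and TMM, edgeR 4.0.16 (R 4.3.3) was fitted by robust quasi-likelihood to the 4 groups together, all 12 libraries sharing 1 estimate of the spread. Tests were 2-sided, with Benjamini-Hochberg adjustment over all genes at 0.05; CPM is TMM-scaled, and log2 CPM used a prior count of 2. DESeq2 1.42.0 and limma 3.58.1 (voom with quality weights) were alternatives. A simulation with 200 changed genes was used to check the code of the fit. Its changes were larger than those of the members and were not shared by the genes of a fish. It therefore does not bear on small shared shifts. Libraries are separate fish. The members, lists and tests were chosen with earlier results of these data known. Named members were those called, the 4 highest and 4 lowest per mutant against wild type, the stalk genes, RPSA2, paralogue pairs and the 3 that departed most and least from the family; of other lists, up to 3 called genes by p. Some members and pairs that this rule names are not reported here. Others, rpl26, eef1da, rps27l and the Diamond-Blackfan list among them, were chosen after their values were seen.

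Same-numbered fish 1 to 3 of il2rga and double mutants correlated at 0.13, 0.12 and 0.52 in their deviations, and the block is given there. Differently numbered pairs of these groups ran from -0.43 to 0.42, so matching by number was not shown for fish 1 and 2. Of all 18 same-numbered pairs 6 were above 0.1, and the main fit used no pairing term. No pair of replicates agreed within sampling noise.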

Additional observations from a re-analysis of the deposited data

How the results depend on the processing

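The median of the members in prkdc mutants against wild type stayed between -0.209 and -0.174 when each library was left out, and it left that direction only with the red cell covariate, beside a value near 0 by construction with scaling to the ribosomal protein genes. With scaling to the ribosomal protein genes the median of all genes was 0.19 in prkdc mutants, -0.11 in il2rga mutants, -0.32 for il2rga against prkdc mutants and -0.23 for double against prkdc mutants. The number of members called was small and moved with the setting, and the cause was not tested. For il2rga mutants against wild type it was 1 with DESeq2, with voom, with scaling to the ribosomal protein genes and without il2rga mutant 3 and double mutant 3, and 0 to 1 with a library left out. For double mutants against wild type it was 0 with only the compared groups, with a liver covariate and without the 4 liver-rich libraries, and 0 to 1 with a library left out; with the red cell covariate it was 1, but the call was rplp1, higher, and rpl5 ENSDARG00000020197 was no longer called (-0.65, adjusted p = 0.0540 by edgeR). For double against prkdc mutants it was 7 with DESeq2, where 22.7% of all genes were called. It was 1 with scaling to the ribosomal protein genes and without il2rga mutant 3 and double mutant 3. That call was rpl5 ENSDARG00000020197, lower (-0.78 and -0.50), and neither rpl29 nor rplp1 was called there. The count was 0 with no filter, only the compared groups or a liver covariate. The range with a library left out was 0 to 4. For il2rga against prkdc mutants it was 14 with DESeq2 and 18 with voom, where 14.5% and 19.2% of all genes were called. With scaling to the ribosomal protein genes it was 1, again rpl5 ENSDARG00000020197, lower (-0.76), where 9.26% of all genes were called. The count was 0 with no filter, only the compared groups or either covariate. The range with a library left out was 0 to 7. For any difference it was 7 with DESeq2 and 4 with voom, where 27.5% and 23.1% of all genes were called. It was 2 with the red cell covariate and 0 with no filter or the liver covariate. It was 1, rpl5 ENSDARG00000020197 and not rpl29, with total counts, with scaling to the ribosomal protein genes and without both fish 3. The range with a library left out was 0 to 2. For prkdc mutants against wild type, double against il2rga mutants and the interaction it was 0 to 0 with a library left out. The replicate block took the count for any difference from 1 (rpl29) to 0 and changed no other count of members called. Some single values that were never called changed sign. For rps11l in prkdc mutants the log2 fold change was 0.00055 with total counts, 0.047 with the replicate block, 0.058 with the red cell covariate, 0.19 with scaling to the ribosomal protein genes and 0.0044 without il2rga mutant 3 and double mutant 3, and 0.17, 0.18 and 0.092 without wild type 2, wild type 3 and prkdc mutant 1. For rpl12 in double mutants it was 0.33 with the liver and 0.020 with the red cell covariate, 0.14 without the 4 liver-rich libraries and 0.0028 without double mutant 2. In prkdc mutants rpl7 was at 0.077 and rpl13a at 0.073 with the red cell covariate, and at 0.091 and 0.10 with scaling to the ribosomal protein genes. The scaling to the ribosomal protein genes, the omission of both fish 3 and the means over 6 against 6 fish were chosen after seeing the data. Depth was no limit for the members named here, except rps11l.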
